A study of Mus musculus with 12 samples.

Results

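RIKEN cDNA clones at 3 loci of the extracellular matrix and the cytoskeleton, Col11a1, Myom1 and Dst, were followed in cultured mouse vascular smooth muscle cells. For each locus 1 probe could be linked by clone name or accession. These were 3 of 97836 probes on the array and 3 of the 15675 that carry a RIKEN clone name. Most probes had no gene symbol, so whether others lie at these loci was not checked. The probes were chosen by name, ri|C530001D20|PX00080L17|971 for Col11a1, ri|D430047A17|PX00195M18|4060 for Myom1 and ri|A830042E19|PX00155E17|1754 for Dst. The first code in each is the clone, and each of these clone codes is a synonym of its gene in the RefSeq gene table. They were picked with their scaled levels in all 4 groups already in view. The levels and differences of the 3 clones are therefore given as a description. Where a clone lies past or short of the threshold of the fit across all probes is stated for orientation, and nothing is read from it, since the choice used the same values.

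The cells came from male mice with Hif1a disrupted in vascular smooth muscle (Hif1a△SMC, called deleted below) or with floxed, undeleted alleles (Hif1afl/fl, called floxed). Cells of each genotype were kept for 24 h with 150 µM cobalt chloride (CoCl2) or with the same volume of phosphate-buffered saline (PBS), giving deleted CoCl2, deleted PBS, floxed CoCl2 and floxed PBS groups of 3 single-colour Agilent arrays each. All 4 groups grew in the same serum-containing smooth muscle medium. The promoter that drives the recombination is not named in the labels, and nothing in the labels ties the 3 arrays of a group to different cultures or animals. The spread between them, and any p-value built on it, may be technical.

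Collagen XI is a minor fibrillar collagen that co-assembles with collagen II in cartilage and limits fibril diameter, and Col11a1 encodes its alpha1 chain. Myom1 encodes myomesin 1, which links thick filaments and titin at the M-band of the striated-muscle sarcomere, a structure that smooth muscle does not build. Dst encodes dystonin (BPAG1), a giant plakin that ties actin, microtubules and intermediate filaments to each other and, in its epithelial form, to hemidesmosomes. HIF-1alpha, the product of Hif1a, is degraded when oxygen is present, and cobalt ions block that degradation. HIF-1 binds DNA at short sites with the core ACGTG or GCGTG.

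Because the comparisons are about Hif1a and a chemical that stabilises its product, the bases around the annotated starts of the 3 genes are shown, from the RefSeq promoter table of build GRCm38.p6. All 3 symbols matched, Dst with 2 windows. Each window runs over 300 bases of the plus strand, 250 before the start and 50 after it, printed 5′ to 3′ with any ACGTG or GCGTG of either strand in capitals.
Col11a1, chr3:114030290-114030589: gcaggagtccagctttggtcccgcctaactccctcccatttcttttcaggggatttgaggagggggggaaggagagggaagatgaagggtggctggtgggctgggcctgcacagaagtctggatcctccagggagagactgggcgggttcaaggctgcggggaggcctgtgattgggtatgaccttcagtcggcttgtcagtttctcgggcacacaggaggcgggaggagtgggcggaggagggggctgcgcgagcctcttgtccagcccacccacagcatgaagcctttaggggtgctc
Myom1, chr17:71019307-71019606: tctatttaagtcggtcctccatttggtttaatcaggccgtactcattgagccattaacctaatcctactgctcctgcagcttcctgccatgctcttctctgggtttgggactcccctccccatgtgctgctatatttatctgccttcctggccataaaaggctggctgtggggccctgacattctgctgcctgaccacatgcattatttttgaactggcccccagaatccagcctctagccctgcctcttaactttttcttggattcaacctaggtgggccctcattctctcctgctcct
Dst window 1, chr1:34011345-34011644: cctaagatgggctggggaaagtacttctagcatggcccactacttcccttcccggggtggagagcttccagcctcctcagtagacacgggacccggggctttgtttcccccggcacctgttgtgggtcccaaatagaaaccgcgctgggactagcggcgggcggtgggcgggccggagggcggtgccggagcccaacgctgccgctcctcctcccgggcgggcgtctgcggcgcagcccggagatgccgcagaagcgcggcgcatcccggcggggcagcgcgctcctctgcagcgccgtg
Dst window 2, chr1:34160010-34160309: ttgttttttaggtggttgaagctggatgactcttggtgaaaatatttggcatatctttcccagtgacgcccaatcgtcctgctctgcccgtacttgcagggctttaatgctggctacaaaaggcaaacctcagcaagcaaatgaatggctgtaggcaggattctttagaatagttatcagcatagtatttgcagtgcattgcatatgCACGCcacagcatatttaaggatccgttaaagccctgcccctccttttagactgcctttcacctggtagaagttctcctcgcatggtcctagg

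A match was found only in window 2 of Dst, where GCGTG lies on the opposite strand, so that it reads CACGC here, with its first printed base 43 bases before the start. The other 3 windows held neither core. Of 32851 windows of this length in the table, 43.8% held at least 1, and a match of this kind is a description of the letters and not a binding site. The clones may start elsewhere in their loci than these windows.

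A clone probe can report a noncoding or otherwise different transcript of its locus, so that the values below are those of the clones and not of the coding mRNAs. The arrays of deleted CoCl2 cells were dimmer than the rest. Of all probes, 54.7% ± 3.43 (SD, n = 3) were well above background there, against 73.2% ± 0.909 in deleted PBS, 75.7% ± 7.56 in floxed CoCl2 and 72.2% ± 2.33 in floxed PBS arrays. Each array was scaled by subtracting the 75th percentile of its log2 signal, which was 8.28 ± 0.10 in deleted CoCl2 arrays and 9.18 ± 0.08 in deleted PBS arrays, with 9.35 ± 0.14 in floxed CoCl2 and 9.47 ± 0.17 in floxed PBS arrays. Levels called scaled are relative to that percentile, and unscaled signals are in the scanner's intensity units. The log2 ratio of 3′ over 5′ control probes of Pgk1 was 2.67 ± 0.19 in deleted CoCl2, 3.07 ± 0.04 in deleted PBS, 2.81 ± 0.17 in floxed CoCl2 and 2.82 ± 0.02 in floxed PBS arrays. That of Gapdh was -2.12 ± 0.14 in deleted CoCl2, -2.25 ± 0.10 in deleted PBS, -1.92 ± 0.11 in floxed CoCl2 and -2.32 ± 0.02 in floxed PBS arrays. The 4 brightest E1A spike-in probes had a mean log2 signal of 11.18 ± 0.43 in deleted CoCl2 and 11.57 ± 0.05 in deleted PBS arrays. It was 11.75 ± 0.15 in floxed CoCl2 and 11.68 ± 0.27 in floxed PBS arrays. Over 10 E1A probes the mean was 7.64 ± 0.43 in deleted CoCl2 and 8.62 ± 0.08 in deleted PBS arrays. It was 9.13 ± 0.13 in floxed CoCl2 and 9.13 ± 0.15 in floxed PBS arrays. The part of that dimness or of RNA quality in the values below was not tested. Hif1a was not among the probes with a name here, so its disruption was not checked, and none of 48 markers of smooth muscle, endothelial, fibroblast, macrophage, cartilage, striated muscle and neural cells on 7 lists had a named probe, so the labelled cell type was not checked either. In RNA from whole cultures, fewer cells of a type and less RNA per cell cannot be told apart.

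The Col11a1 clone was dim in both CoCl2 groups. Its signal was 49.2, 22.3 and 83.1 in deleted CoCl2 cells, against 274, 248 and 435 in deleted PBS cells. In floxed cells it was 70.9, 105 and 29.2 with CoCl2, against 187, 343 and 299 with PBS. Every CoCl2 array lay below every PBS array, and the arrays with signals of 22.3 and 29.2 were not well above background. After scaling, the levels were -2.58, -3.92 and -1.88 in deleted CoCl2 cells and -1.04, -1.19 and -0.50 in deleted PBS cells. They were -3.08, -2.80 and -4.46 in floxed CoCl2 cells and -1.75, -1.07 and -1.40 in floxed PBS cells. By mean scaled level the order was deleted PBS (-0.91 ± 0.36, SD, n = 3), floxed PBS (-1.41 ± 0.34), deleted CoCl2 (-2.79 ± 1.04) and floxed CoCl2 (-3.45 ± 0.89). The 2 PBS groups overlapped, as did the 2 CoCl2 groups, so the genotypes did not separate under either treatment.

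The Myom1 clone was brightest in floxed PBS cells and was not well above background in deleted CoCl2 cells. In deleted CoCl2 cells its signal was 6.85, 5.79 and 6.89, close to the scanner's own error for those spots of 5.94, 5.84 and 6.93, and no array was well above background. It was 123, 163 and 88.1 in deleted PBS cells. In floxed cells it was 106, 166 and 78.2 with CoCl2 and 294, 589 and 359 with PBS. All 3 arrays of these 3 groups were well above background, and the groups of deleted PBS and floxed CoCl2 cells overlapped. Scaled, the levels were -5.42, -5.86 and -5.47 in deleted CoCl2 cells and -2.19, -1.79 and -2.81 in deleted PBS cells. They were -2.50, -2.13 and -3.04 in floxed CoCl2 cells and -1.09, -0.29 and -1.13 in floxed PBS cells. The means fell in the order floxed PBS (-0.84 ± 0.47, SD, n = 3), deleted PBS (-2.26 ± 0.51), floxed CoCl2 (-2.56 ± 0.46) and deleted CoCl2 (-5.58 ± 0.24), the middle pair within its spread. The lowest signal of any probe well above background lay at -3.40 ± 0.25 on the deleted CoCl2 arrays, so that the last level is known only to lie at or below about that point.

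The Dst clone ran the other way, with its lowest levels in floxed PBS cells. Its signal was 123, 182 and 98.8 in deleted CoCl2 cells and 101, 92.4 and 101 in deleted PBS cells. In floxed cells it was 122, 139 and 152 with CoCl2 and 58.1, 57.8 and 53.7 with PBS. All 12 arrays were well above background, and the unscaled deleted CoCl2 arrays overlapped both the deleted PBS and the floxed CoCl2 arrays. Scaled, the levels were -1.26, -0.89 and -1.63 in deleted CoCl2 cells and -2.48, -2.61 and -2.61 in deleted PBS cells. They were -2.29, -2.38 and -2.08 in floxed CoCl2 cells and -3.43, -3.64 and -3.87 in floxed PBS cells. The scaled order was deleted CoCl2 (-1.26 ± 0.37, SD, n = 3), floxed CoCl2 (-2.25 ± 0.16), deleted PBS (-2.57 ± 0.07) and floxed PBS (-3.65 ± 0.22), and no neighbours overlapped, though the nearest arrays of the middle pair stood at -2.38 and -2.48.

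**Figure D1:**
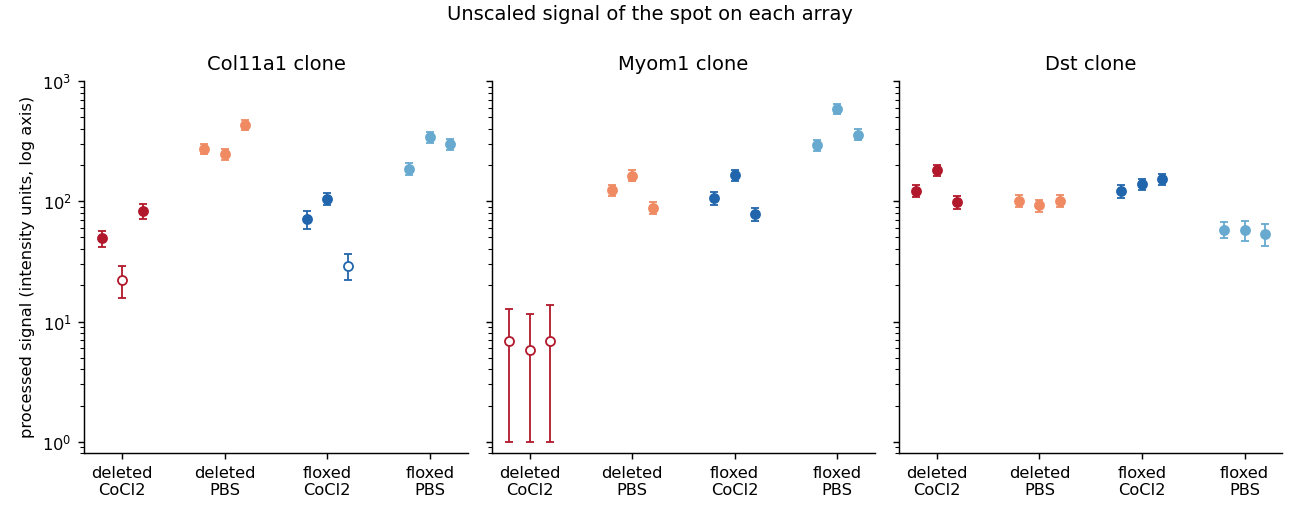
Unscaled signal of the 3 clones on each array, on a log axis in scanner intensity units; each point is 1 array, whiskers are the scanner's error for the spot (ends below 1 are drawn at 1), and open points were not well above background. Myom1 lay at 5.79 to 6.89 in deleted CoCl2 cells and at 78.2 or more on every other array, and the Dst arrays of deleted CoCl2 cells overlap those of deleted PBS and floxed CoCl2 cells.

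**Figure D2:**
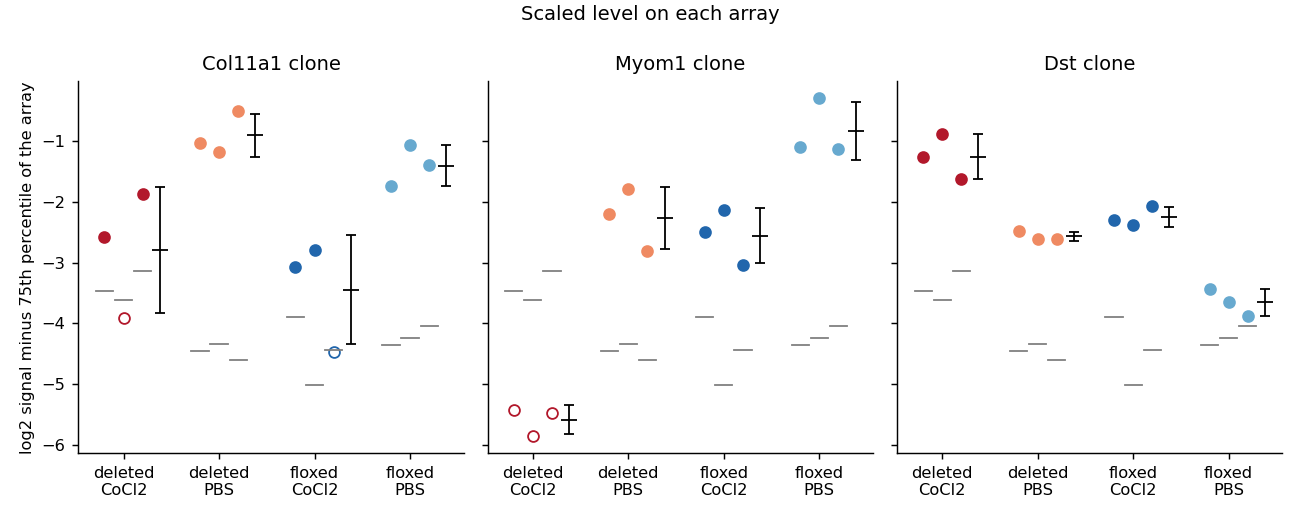
Scaled level of the 3 clones on each array, as log2 signal minus the 75th percentile of the array; points are arrays (open: not well above background), bars are the mean and SD of 3 arrays, and grey dashes mark the lowest probe well above background on that array. Col11a1 and Myom1 lay lower with CoCl2 in both genotypes, and Dst lay higher.

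The first comparison was CoCl2 against PBS in deleted cells. The Col11a1 clone was lower by a log2 change of -1.88 (SE 0.51), which is 3.68-fold lower with CoCl2. The Dst clone was 2.48-fold higher (log2 change 1.31, SE 0.20). The Myom1 clone was at least 2.21-fold lower by the bound on its means, where the measured means were -5.58 with CoCl2 and -2.26 with PBS. The bound is itself an estimate (log2 change -1.14, SE 0.31, with signals floored) and holds for the percentile scaling. The 3 clones lay past the limma threshold (Benjamini-Hochberg adjusted p of 0.05) with groups that did not overlap, as did 52.8% (threshold) and 58.9% (no overlap) of the 70909 probes tested, and the choice of the clones fixed that count. With normexp background correction and quantile normalization the changes were smaller, at -1.08 for Col11a1, -1.17 for Myom1 and 1.00 for Dst. That setting, here and below, adds an offset of 50 to each signal. The offset by itself narrows log2 differences between dim signals, so the smaller sizes are no separate measure of the changes. The Dst difference was 0.41 on unscaled log2 signal, where its groups overlapped. It was 0.80 with the arrays scaled to 4 E1A spike-in probes, which moved the median change of all probes to -0.64, against -0.14 with the percentile. Scaled to 10 E1A probes the Dst difference was 1.40, beside a median of -0.05.

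In floxed cells, where Hif1a was undeleted, CoCl2 was set against PBS in the same way. The Col11a1 clone was 4.11-fold lower (log2 change -2.04, SE 0.51). The Myom1 clone was 3.29-fold lower (log2 change -1.72, SE 0.32). The Dst clone was 2.64-fold higher (log2 change 1.40, SE 0.20). With normexp and quantile normalization these changes were -1.15, -1.27 and 0.74. The 3 clones lay past the threshold without overlap, where 4.99% of all probes were past it and 24.4% had no overlap. That gap is no enrichment, because the clones were picked from these levels. Unscaled, the Dst groups of floxed cells did not overlap either (log2 change 1.28). In 10 of 12 fits that left out 1 array Col11a1 fell short of the threshold, with changes of -2.36 to -1.53, and Myom1 did so without floxed CoCl2 array 3 (-1.47) or floxed PBS array 2 (-1.44).

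The third comparison set deleted against floxed cells under CoCl2. The Myom1 clone was at least 1.80-fold lower in deleted cells by the bound on its means, with measured means of -5.58 in deleted and -2.56 in floxed cells. The bound is itself an estimate (log2 change -0.85, SE 0.31, with signals floored) and holds for the percentile scaling. The Dst clone was 1.99-fold higher (log2 change 0.99, SE 0.20), and the Col11a1 clone differed by 0.66 (SE 0.51) with overlapping groups. Of the 3 clones 2 lay past the threshold and 2 had no overlap, beside 67.1% of all probes past it and 66.8% without overlap. On unscaled signal the Dst difference was -0.08 with overlapping groups. Scaled to 4 E1A probes it was 0.50 and no longer past the threshold, beside a median of -0.46 over all probes. Scaled to 10 E1A probes it was 1.42 and past the threshold, beside a median of 0.46, so the 2 spike-in scalings moved it in opposite directions. Col11a1 reached 1.22 and passed the threshold without deleted CoCl2 array 2.

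Under PBS, deleted cells were set against floxed cells without the added CoCl2. The Dst clone was 2.12-fold higher in deleted cells (log2 change 1.08, SE 0.20) and was past the threshold, and its groups did not overlap on scaled or unscaled signal. The Myom1 clone was 2.68-fold lower (log2 change -1.42, SE 0.32), also without overlap, but was not past the threshold. The Col11a1 clone differed by 0.50 (SE 0.51) with overlapping groups. Of the 3 clones 1 lay past the threshold and 2 had no overlap, where 1.52% of probes were past it and 47.7% had no overlap, and again nothing is read from the count. Normexp and quantile normalization gave 0.65 for Dst and -0.96 for Myom1. In 8 of 12 fits that left out 1 array Dst fell short of the threshold, with changes of 0.97 to 1.19.

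The last comparison was the difference between the CoCl2 effects, deleted minus floxed. It was 0.16 for Col11a1 (SE 0.72, 95% interval -1.41 to 1.73) and -0.09 for Dst (SE 0.28, 95% interval -0.70 to 0.52), neither past the threshold. For Myom1 the fit gave -1.60 (SE 0.45), the 1 clone of 3 past the threshold, where 20.9% of all probes were. Neither the size nor the call carries support, because the deleted CoCl2 signals behind it were not well above background. With every signal raised to the lowest one well above background on its array it was 0.58, and with normexp background correction and quantile normalization it was 0.11. The contrasts share groups of arrays, so their values are set side by side and not correlated.

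**Figure D3:**
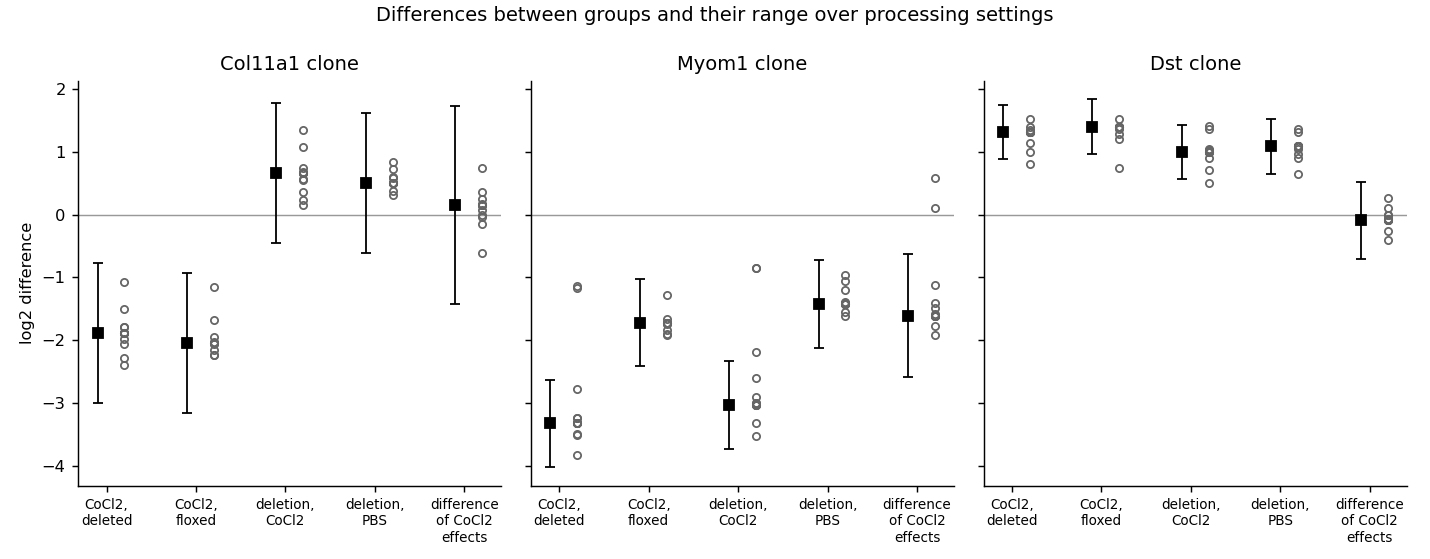
Log2 differences of the 3 clones in the 5 contrasts; squares are the values in the text with their 95% intervals from limma, and open circles are the same differences under the other processing settings. The Myom1 difference of CoCl2 effects lies at -1.60 and moves to 0.11 with normexp and 0.58 with floored signals, where 0.58 is an upper bound. The Dst differences between groups stay above 0 under the settings drawn. On unscaled signal, which is not drawn, the Dst difference between genotypes under CoCl2 was -0.08.

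The arrays lay on 3 slides. On slide 3 were the 3 deleted CoCl2 arrays with 1 deleted PBS array. On slide 1 was 1 floxed CoCl2 array with the 3 floxed PBS arrays, and slide 2 had the 2 other arrays of deleted PBS and of floxed CoCl2 cells. Within slide 3 the scaled levels of deleted CoCl2 arrays were -3.92 to -1.88 for Col11a1, -5.86 to -5.42 for Myom1 and -1.63 to -0.89 for Dst, against -0.50, -2.81 and -2.61 on the deleted PBS array. Within slide 1 the floxed CoCl2 array stood at -3.08 for Col11a1, -2.50 for Myom1 and -2.29 for Dst, against ranges of -1.75 to -1.07, -1.13 to -0.29 and -3.87 to -3.43 on floxed PBS arrays. The CoCl2 directions were thus the same within both slides that hold both treatments of a genotype. On those slides the CoCl2 arrays also lay after the PBS arrays, so treatment and position cannot be told apart, and no slide held both genotypes under 1 treatment. Deleted CoCl2 array 2 was scanned apart from the others, and without it the 3 clones stayed past the threshold for CoCl2 in deleted cells. With slide as a fixed block, the Myom1 and Dst clones in deleted cells (-2.78 and 1.35) lay past the threshold. Myom1 between genotypes under CoCl2 (-2.18) did so as well, and no other value of the 3 clones did. In that fit 16430 of 70909 probes were past it for CoCl2 in deleted cells and 18729 between genotypes under CoCl2. Nothing is read from these calls, and both Myom1 values rest on deleted CoCl2 signals that were not well above background.

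Clones at other genes of the matrix and cytoskeleton were looked up on 6 lists of 314 genes. Probes that could be linked to a symbol existed for 12 of the genes, 13 probes in all. Probes without a symbol, which include most RIKEN clones, could not be matched to the lists. Of these, 3 were the clones above and the clone at Col23a1, a transmembrane collagen, was well above background on no array, which left 9 others to test. The 6 lists cover collagens, collagen processing, other matrix, the sarcomere, plakins and linkers, and smooth muscle contractile genes. No other linked collagen or sarcomere clone could be tested.

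With CoCl2 in deleted cells, 4 of the 9 clones were called lower and none higher, beside 32.9% of all probes lower and 19.9% higher past the threshold. The 4 include the clone at Fbln2, which was kept only through its deleted PBS arrays, so its call carries no support. With slide as a fixed block the count was 0, with changes of -0.95 for Fbln2, -0.74 for Prelp, -0.43 for Synpo2 clone 1110069I04 and -0.76 for Synpo (limma adjusted p = 0.276, 0.138, 0.217 and 0.0794). With that block 16430 of 70909 probes were past the threshold, against 37473 without it. The median change of the 9 was 0.05, against -0.14 over all probes. The clone at Prelp, a small leucine-rich proteoglycan, averaged -0.62 ± 0.37 (SD, n = 3) with CoCl2 and 0.44 ± 0.42 with PBS (log2 change -1.05, limma adjusted p = 0.00425). The clone at Synpo, an actin-associated protein of podocytes and dendritic spines, averaged -2.11 ± 0.30 with CoCl2 and -1.13 ± 0.20 with PBS (log2 change -0.99, adjusted p = 0.00302). Clone 1110069I04 at Synpo2, an actin-binding protein of muscle, changed by -0.53 (adjusted p = 0.0311), whereas the other Synpo2 clone, 9530006G20, had 0.47 and was not past the threshold. The clone at Fbln2, the matrix glycoprotein fibulin 2, had -1.37 in the fit. It was well above background only in deleted PBS cells, at a level below the bound of the deleted CoCl2 arrays. With signals floored at the lowest one well above background it was 0.68, so neither a direction nor a fold is given. Without deleted CoCl2 array 2 or without deleted PBS array 1 the count was 2, as Fbln2 and Synpo2 were no longer past the threshold. In these fits 36891 and 29511 of 70909 probes were past it. With CoCl2 in floxed cells, 0 of 9 were past the limma threshold, beside 4.99% of all probes, and 2 had an unadjusted p under 0.05, beside 17.1%. The clones called in deleted cells were at -0.84 (Prelp), -0.44 (Synpo), -0.02 (Synpo2 clone 1110069I04) and -1.23 (Fbln2) there. Fbln2 was not well above background in either floxed group. Their differences of CoCl2 effects, deleted minus floxed, were -0.22, -0.55, -0.51 and -0.14 in the same order, and none was past the threshold.

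Between genotypes under CoCl2, 3 of the 9 clones were higher in deleted cells and 2 were lower, beside 30.6% of all probes higher and 36.4% lower past the threshold. With slide as a fixed block the count was 0, with changes of 0.26 for Lamb1, 0.42 for Clasp2, 0.87 for Cald1, -0.52 for Synpo and -0.58 for Synpo2 clone 1110069I04 (limma adjusted p = 0.657, 0.313, 0.0804, 0.315 and 0.197). With that block 18729 of 70909 probes were past the threshold, against 47571 without it. The median of the 9 was 0.49, against 0.04 over all probes. The clone at Lamb1, the laminin beta1 chain of basement membranes, averaged -0.94 ± 0.43 (SD, n = 3) in deleted and -1.85 ± 0.12 in floxed cells (log2 change 0.91, limma adjusted p = 0.00774). The clone at Clasp2, which binds growing microtubule ends, averaged -2.02 ± 0.16 in deleted and -2.66 ± 0.23 in floxed cells (0.64, adjusted p = 0.00769). The clone at Cald1, the actin-binding regulator caldesmon, averaged 3.09 ± 0.27 in deleted and 2.40 ± 0.28 in floxed cells (0.69, adjusted p = 0.00723). The Synpo clone changed by -0.72 (limma adjusted p = 0.0117) and Synpo2 clone 1110069I04 by -0.60 (adjusted p = 0.0136). Scaled to 4 E1A probes, Lamb1, Clasp2 and Cald1 were at 0.41, 0.14 and 0.19 and none was past the threshold, beside a median of -0.46 over all probes. Scaled to 10 E1A probes, which moved that median to 0.46, Synpo was at -0.30 and Synpo2 clone 1110069I04 at -0.17, neither past it. Cald1 and Synpo were also short of it with quantile normalization (0.27 and -0.31) and with normexp (0.29 and -0.15), and Clasp2 and Cald1 with the percentile over probes above background on all 12 arrays (0.35 and 0.40). Without floxed CoCl2 array 3 the count was 3 in place of 5, beside 42067 of 70909 probes past the threshold in that fit. Under PBS, 0 of 9 were past the limma threshold, beside 1.52% of all probes, and 2 had an unadjusted p under 0.05, beside 28.3%. For the difference of CoCl2 effects 0 of 9 were past the limma threshold, beside 20.9% of all probes, and 0 had an unadjusted p under 0.05, beside 36.1%.

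**Figure D4:**
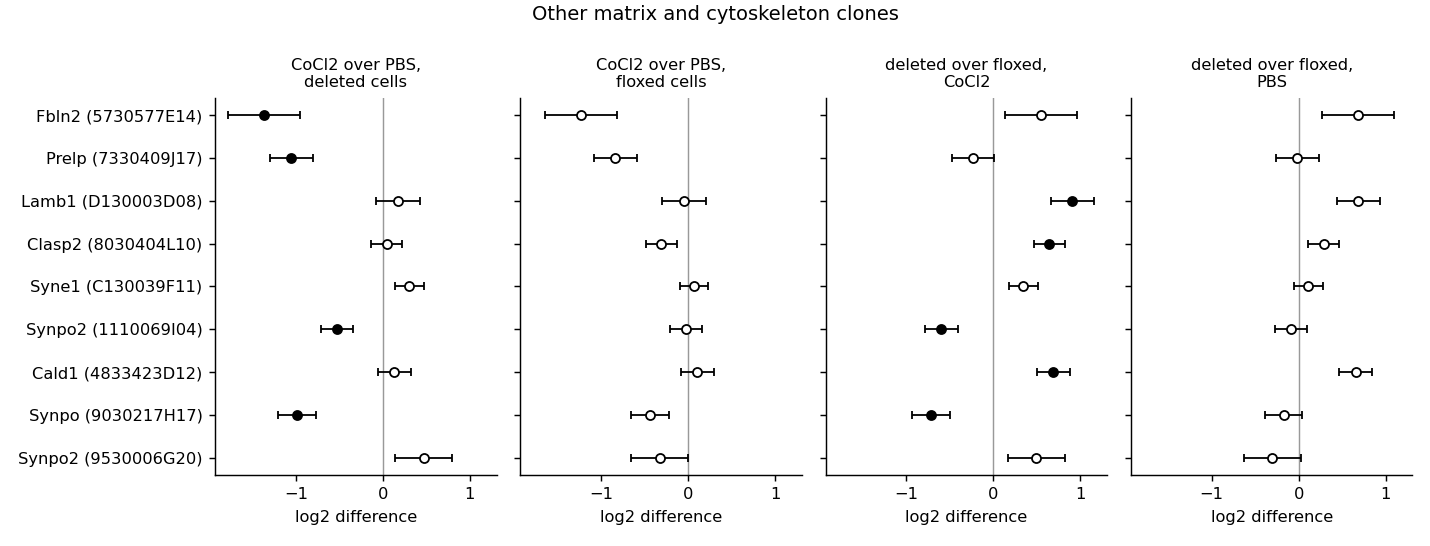
Log2 differences of the 9 other matrix and cytoskeleton clones in 4 contrasts, with bars of 1 SE from limma; filled points passed an adjusted p of 0.05. In deleted cells with CoCl2 the filled points are Fbln2, Prelp, Synpo2 clone 1110069I04 and Synpo, all below 0. Fbln2 was not well above background there with CoCl2, and its sign changed when signals were floored.

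The features with a symbol whose scaled levels were most like those of each clone over the 12 arrays were listed by Pearson correlation among 3444 candidates. The arrays share their groups and slides, so these are descriptions. For Col11a1 they were 2700099C18Rik (0.95), the clone at Rint1 (0.94), a gene of vesicle tethering, Gm32499 (0.93), the clone at Vps36 (0.91), a subunit of the endosomal ESCRT-II complex, and E230014E18Rik (0.91). The Rint1 clone was well above background on 8 of 12 arrays. For Myom1 they were Gm39456 (0.97), 4930445N08Rik, 4930422M22Rik, Gm34162 and Gm34846 (0.96 each). All but Gm34162 were well above background on 9 of 12 arrays, as Myom1 was. These 4 averaged -5.55 to -4.54 in deleted CoCl2 cells, below the lowest level well above background there (-3.40). Part of their likeness to Myom1 thus rests on signals that were not well above background. For Dst they were the clones at Ndfip2 (0.96), an adaptor of ubiquitin ligases, Pvr (0.95), a cell adhesion receptor, and Tnks (0.95), the poly-ADP-ribose polymerase tankyrase, with 9630025h16rik and 3000002C10Rik (0.95 each).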

How the data were processed

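Cyanine-3 cRNA from the total RNA of 12 samples was read on 1 single-colour array each, per the labels' protocols. The deposited scanner files give linear intensity per spot. Agilent Feature Extraction made them, in version 11.5.1.1 per the file headers and 9.1 per the submitters' processing notes. The authors' deposited value table holds log2 values with the 75th percentile of each array near 0 and served as an alternative. Per the file headers the design build is mm9; positions from the files were not used.

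From the scanner values, log2 processed signal was averaged over the spots of a probe (the 3 clones have 1 spot each, none saturated or marked as an outlier) and the 75th percentile over the spots outside the controls was subtracted. Of 97836 probes, 70909 were kept, those with every array of some group (3 of 3) well above background. Groups came from the labels. limma 3.58.1 in R 4.3.3 fitted lmFit and eBayes to 12 arrays with 1 mean per group, with Benjamini-Hochberg adjustment over 70909 probes and a threshold of 0.05; the script was tested on simulated data. Where no array of a group was well above background, a fold is a bound: the brighter group's mean against the dimmer group's mean after each array's value was raised, where lower, to the lowest signal well above background on it. The number of arrays limits the precision. A symbol came from a RefSeq table of GRCm38.p6, by accession or clone synonym, for 1209 of 15675 clones.

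The clones, the related lists and the tests were chosen with earlier results of these data known. The genes named are the 3 clones, related clones past the threshold in at least 1 contrast (at most 10 per contrast), and the 5 features most correlated with each clone; Syne1 in the plot of related clones and the second Synpo2 clone come from the same lists, and Col23a1 was named after its values were seen.

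Pairing by the array numbers of the titles was checked through deviations from group means. Floxed CoCl2 arrays each matched the floxed PBS array of their own number best, with correlations of 0.396, 0.414 and 0.452. Deleted arrays did not all do so (-0.144, 0.285 and 0.235). The fit behind the values and errors above used no pairing, in floxed cells either, and the pairing entered only as an alternative setting. For Col11a1 with CoCl2 in floxed cells that setting gave an SE of 0.36, against 0.51. With the number as a block within genotype, no call of the 3 clones changed. Alternatives were other normalizations, filters, blocks, the authors' table and leaving out each array. The files hold a median and no mean signal, so normexp (offset 50) used the median.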

Additional observations from a re-analysis of the deposited data

Results flagged for a closer look

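The difference between the CoCl2 effects of deleted and floxed cells on the Myom1 clone was -1.60 on the log2 scale (SE 0.45) in the fit. It is listed because the fitted effects differed between the genotypes, but the clone was chosen with these levels in view, so the fit is no independent test of it. The signals behind it were 6.85, 5.79 and 6.89 in deleted CoCl2 cells, none well above background, against 123, 163 and 88.1 in deleted PBS cells, and 106, 166 and 78.2 in floxed CoCl2 cells against 294, 589 and 359 in floxed PBS cells. With every signal raised to the lowest one well above background on its array, the difference was 0.58. Only the deleted CoCl2 signals were raised by this, so 0.58 is an upper bound and not a second estimate.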

How the results depend on the processing

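For the difference of CoCl2 effects the sign changed for all 3 clones: Myom1 (-1.60) was 0.11 with normexp and 0.58 with signals floored at the lowest one well above background, a setting chosen after seeing the data. Dst (-0.09) was 0.26 with normexp and 0.11 scaled to 10 E1A probes. Col11a1 (0.16) was -0.0082 with the percentile over probes above background on all 12 arrays, -0.16 scaled to 4 E1A probes, -0.61 with slide as a fixed block and -0.034 as a random block. Without the listed array, Col11a1 was -0.30 (deleted CoCl2 array 3), -0.35 (floxed CoCl2 array 3) and -0.0074 (floxed PBS array 2), and Dst was 0.094 (deleted CoCl2 array 3) and 0.022 (floxed PBS array 3). The Fbln2 change in deleted cells was 0.68 with the floor. The Myom1 difference stayed negative but lost the threshold with quantile normalization (-1.61), 10 E1A probes (-1.40) and slide as a fixed (-1.12) or random block (-1.48).

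Calls lost elsewhere, cause not tested, were as follows. Col11a1 in deleted cells: slide fixed (-2.29). Col11a1 in floxed cells: 4 E1A (-2.23), 10 E1A (-2.15), no filter on dim probes (-2.04), slide fixed (-1.67) or random (-1.94), replicate block (-2.04). With slide fixed, Myom1 (-1.66) and Dst (1.36) in floxed cells, and Dst under CoCl2 (1.04) and PBS (1.04) between genotypes. Dst between genotypes also with 4 E1A under CoCl2 (0.50), and with 10 E1A (1.31) and slide random (1.07) under PBS. Calls gained were Col11a1 between genotypes under CoCl2 with quantile normalization (1.34), and Myom1 between genotypes under PBS with normexp (-0.96), the percentile over probes above background on all arrays (-1.55), 4 E1A (-1.61), the replicate block (-1.42), only the 6 arrays compared (-1.42) and the floor (-1.42). Pairing by replicate block within genotype changed no call of the 3 clones.

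The count of related clones past the threshold was 0 in place of 4 with slide fixed for CoCl2 in deleted cells, where 16430 in place of 37473 of 70909 probes were past it. It was 1 in place of 0 in floxed cells with quantile normalization, either E1A scaling, the filter on all 12 arrays, the replicate block within genotype and only 6 arrays. Between genotypes under CoCl2 it was 3 in place of 5 with the percentile over probes on all 12 arrays and with 4 E1A, and 0 with slide fixed. It was 1 in place of 0 under PBS (6 arrays, floor) and for the difference (4 E1A).

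Leaving out 1 array gave -2.36 to -1.53 for Col11a1 and -1.93 to -1.44 for Myom1 in floxed cells. Between genotypes it gave 0.15 to 1.22 for Col11a1 under CoCl2, and 0.97 to 1.19 for Dst and -1.66 to -1.15 for Myom1 under PBS. For the difference it gave -0.35 to 0.72 for Col11a1, -1.88 to -1.37 for Myom1 (call lost in 5 of 12 fits) and -0.28 to 0.094 for Dst. It gave 2 to 4 related clones in deleted cells with CoCl2 and 3 to 5 between genotypes under CoCl2. The first was 2 without deleted CoCl2 array 2 or deleted PBS array 1 and 3 without deleted CoCl2 array 1 or 3 or deleted PBS array 2; the second was 3 without floxed CoCl2 array 3 and 4 without floxed CoCl2 array 2. The filter on all 12 arrays leaves no value for Col11a1 and Myom1, the block within genotype none between genotypes, and 6 arrays none for the difference. Signal over background limits Col11a1 with CoCl2 and Myom1 in deleted CoCl2 cells.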
